A study of Mus musculus with 4 samples.

Results

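The acute-phase response is the set of proteins that liver, and in brain the reactive astrocyte, make in quantity when tissue is inflamed or injured. Interleukin 1 and tumour necrosis factor act through NF-kB, cytokines of the interleukin 6 family act through STAT3, and C/EBP factors join both at the promoters of these genes. In astrocytes several of these products are known as markers of reactivity and reach neighbouring cells because they are secreted. The 8 genes described here were Lcn2, Chil1, Serpina3n, Saa3, Hp, Cp, Lrg1 and Steap4, taken by exact gene symbol from a table of 25393 listed genes. All 8 were among the 22094 genes tested. Steap4 and Chil1 were chosen by their very large log2 fold change between the genotype labels, so their values are a description and carry no test. The other 6 were taken up with earlier results of the same data known. Not every gene fitted the name of the group. Steap4 encodes a metal reductase that stays in the membrane, and Cp is known in astrocytes also as a form anchored to the cell surface.

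RNA-seq was done on primary astrocyte cultures to ask which transcripts differ when Tet1, an enzyme that oxidises 5-methylcytosine, is lost. There were 2 libraries from wild type (WT) and 2 from tet1-/- (KO) cultures, all of strain C57BL/6, untreated, and taken from the cortex and hippocampus of pups at postnatal day 1. The KO is constitutive, so every cell of the pup carries it and not the astrocytes alone. The labels give 2 mice for an isolation, a culture of about 7 days, purification by shaking at 260 rpm and 24 more hours before collection. The methods of the study differ from these labels, with a lower shaking speed and wider ranges of pup age and culture time. The study calls its RNA-seq samples biological repeats, and states more of them for each genotype than the 2 libraries available here. Whether the 2 libraries of a genotype came from separate cultures or animals is not given in the sources used here. The p-values therefore measure only the spread between these libraries.

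The libraries held between 18749610 and 22673555 reads on genes, and each deposited value was a read count scaled by the size factor of its library, called a normalized count below. One read was worth 0.901 to 1.07 normalized counts. The Tet1 transcript was no lower under the KO label. It stood at 266 and 121 normalized counts in WT and at 173 and 463 in the KO-labelled libraries, a log2 fold change of 0.66 ± 0.65 (SE; limma, adjusted p = 0.691). The study itself reports Tet1 mRNA as hardly detectable in its KO astrocytes, and a lower global level of the oxidised base that Tet1 makes. Its mRNA result and this gene count differ. A gene-level count includes reads from any part of the transcript that a deletion leaves. This value is therefore no check of a deletion within the gene, and these samples are called the KO-labelled libraries throughout. The 2 KO-labelled libraries also stood further apart than the WT pair. Among 12868 genes averaging at least 50 normalized counts, 28.6% differed by more than 2-fold between the KO-labelled libraries, against 10.7% between the WT libraries. Xist, the X-inactivation transcript, was at 8.54 and 0.92 normalized counts in WT and at 2896 and 13367 in the KO-labelled libraries, so the sex of the cultures and the genotype labels cannot be told apart.

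Short promoter stretches of 3 of the genes are shown first, since they held letter patterns of the named factors and differed in which they held. RefSeq gene starts on GRCm38.p6 were found for 7 of the 8 genes, all but Hp. The 250 bases before each start were searched on both strands for TTCNNNGAA (STAT), TTGCNNAA (C/EBP) and GGNNNTTCC (NF-kB), and no matches overlapped each other. In each window the longest stretch that touches no annotated exon was taken, and only the 3 that held a match are printed. The matches of Lcn2, Cp and Lrg1 lay outside their stretches. Sequences run 5′ to 3′ on the strand of the gene, with the matches in capitals (a match on the opposite strand appears as its reverse complement).
Steap4, chr5:7960347-7960456, plus strand: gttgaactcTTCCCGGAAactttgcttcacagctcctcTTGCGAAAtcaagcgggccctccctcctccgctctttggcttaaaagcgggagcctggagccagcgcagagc
Saa3, chr7:46715701-46715926, minus strand: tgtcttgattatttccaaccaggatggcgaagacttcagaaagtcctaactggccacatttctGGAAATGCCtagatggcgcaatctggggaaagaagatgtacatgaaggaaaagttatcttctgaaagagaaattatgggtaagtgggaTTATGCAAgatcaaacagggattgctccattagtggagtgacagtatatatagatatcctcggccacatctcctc
Serpina3n, chr12:104406458-104406707, plus strand: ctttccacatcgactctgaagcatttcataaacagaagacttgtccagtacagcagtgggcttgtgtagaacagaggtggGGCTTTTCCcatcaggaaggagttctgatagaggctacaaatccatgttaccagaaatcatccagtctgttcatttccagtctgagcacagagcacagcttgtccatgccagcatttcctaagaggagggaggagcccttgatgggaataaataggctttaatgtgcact

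The STAT letters were found in 1 of the 7 genes, Steap4, and in 7.02% of all 32851 promoter windows of the same length. The C/EBP letters were found in 4 genes (Lcn2, Saa3, Cp and Steap4) and in 9.56% of all windows. The NF-kB letters were found in 5 genes (Serpina3n, Saa3, Cp, Lrg1 and Steap4) and in 15.7% of all windows. Cp had 2 starts, and its matches came only from start 2. The members are counted as genes, whereas the shares are of windows. Steap4 alone of the 7 held all 3, while none was found in the window of Chil1. In Steap4 the STAT match lay 116 to 108 bases before the start and the C/EBP match 87 to 80 bases before it, with NF-kB matches further out, beyond the printed stretch, at 226 and 153 bases. Saa3 held its C/EBP match at 99 to 92 bases and its NF-kB match at 187 to 179 bases. A match of these letters is a description of the sequence and says nothing of binding in these cells.

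All 8 genes were lower in both KO-labelled libraries than in both WT libraries. An ordering of that kind was found in 25.4% of all tested genes, and the reverse ordering in 22.5%. The median log2 fold change of the 8 was −5.20, with a range from −8.82 to −3.61, beside a median of −0.07 over all tested genes. Without Steap4 and Chil1 the median of the remaining 6 was −4.78. Summed over the 8 genes, FPKM (reads scaled by transcript length and by all reads on genes) was 7782 and 5560 in WT against 132 and 177 in the KO-labelled libraries. In these bulk cultures, fewer cells of a type and less RNA per cell cannot be told apart. None of the 6 genes with a test passed an adjusted p of 0.05 in limma, in which 0.0% of all genes passed and the lowest adjusted p was 0.0777. At an unadjusted p under 0.05 limma had 6 of the 6 lower, where 9.18% of all genes were lower and 4.54% higher. edgeR on the recovered reads called 0 of the 6 after adjustment and 0.0% of all genes, with 2733 genes at an unadjusted p under 0.05. DESeq2 called 5 of the 6 lower, all but Saa3 and with Hp and Lrg1 at 3 reads or fewer in each KO-labelled library, and called 4.62% of the genes it tested lower and 1.64% higher. Because the 6 were chosen with results of this contrast known, nothing is read from these counts against those of all genes. For a single value, an exact permutation test of 2 against 2 libraries cannot give a two-sided p below 0.333.

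**Figure D1:**
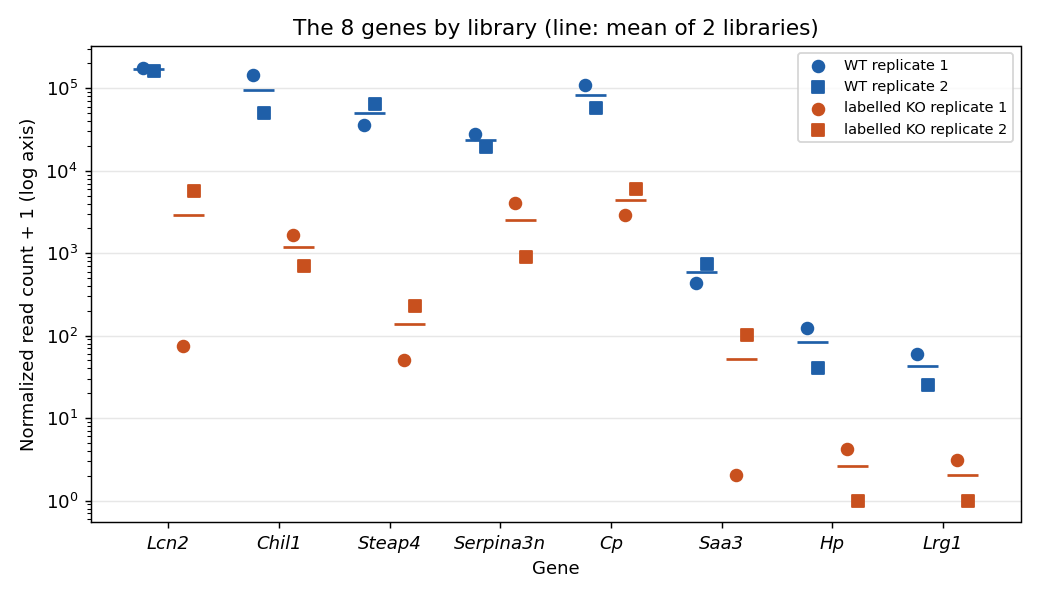
Normalized counts of the 8 genes in each of the 4 libraries, on a log axis of normalized count + 1, with a point for each library and a line for the group mean. All 8 genes sit lower in both KO-labelled libraries, and the KO-labelled libraries lie 76.7-fold apart for Lcn2 against 2.02-fold for Cp.

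Lcn2 encodes lipocalin 2, a secreted protein that binds bacterial siderophores and so withholds iron. It lies on chromosome 2 (GRCm38 chr2:32384633-32388252, minus strand) and has 6 annotated transcripts with up to 7 exons. It was at 178274 and 162703 normalized counts in WT, and at 73.9 and 5663 in the KO-labelled libraries. The groups did not overlap, but the KO-labelled libraries lay 76.7-fold apart whereas the WT libraries lay 1.10-fold apart. Per length, Lcn2 ranked 4 and 5 of all listed genes by FPKM in WT against 11405 and 411 in the KO-labelled libraries. The group means were 170489 ± 11010 and 2868 ± 3952 normalized counts (SD, n = 2 each), and the log2 fold change was −8.03 ± 1.92 (SE; limma, adjusted p = 0.219). Its size depended on which KO-labelled library was kept. The log2 fold change was −4.91 without KO replicate 1 and −11.15 without KO replicate 2. DESeq2 gave −5.89 with an adjusted p of 1.2e-04, and over all alternatives the adjusted p ranged from 1.2e-04 to 0.967. The value of 0.967, here and for the genes that follow, came without WT replicate 1.

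Saa3, a serum amyloid A gene whose product travels with lipoproteins and rises in inflamed tissue, also lay far apart between the KO-labelled libraries, at a lower level. It lies at chr7:46711998-46715700 on the minus strand and has 3 annotated transcripts with up to 4 exons, and 4.15% of its 50-base stretches also occur in other transcripts. Normalized counts were 430 and 740 in WT against 1.07 and 101 in the KO-labelled libraries. The groups did not overlap, yet KO replicate 1 held a single read while KO replicate 2 held 112. The ratio of those libraries was 1.06% (exact 95% interval 0.0266 to 6.03%, counting error only). The log2 fold change was −5.28 ± 1.78 (SE; limma, adjusted p = 0.316), −2.47 without KO replicate 1 and −8.09 without KO replicate 2. DESeq2 also left it uncalled (adjusted p = 0.0627), and over all alternatives the adjusted p ranged from that value to 0.967. Its hepatic relatives Saa1 and Saa2 were near 0 in every library.

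Chil1 encodes a secreted chitinase-like lectin that binds chitin without cutting it and is used as a marker of reactive astrocytes. It lies at chr1:134182176-134190181 on the plus strand, with 8 annotated transcripts of up to 10 exons. Normalized counts were 142981 and 49704 in WT against 1649 and 702 in the KO-labelled libraries. The WT libraries differed by 2.88-fold and the KO-labelled libraries by 2.35-fold, and the lowest WT value was 30.1 times the highest value labelled KO. Described without a test, the WT mean was 81.9 times the mean of the KO-labelled libraries, and the log2 fold change was −6.29 ± 0.66 (SE). It was −7.05 to −5.53 when a library was left out.

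Serpina3n encodes a secreted serine protease inhibitor and is among the genes most often used to mark reactive astrocytes. It lies at chr12:104406729-104414329 on the plus strand in a cluster of near copies, has 1 annotated transcript of 5 exons, and shares 6.9% of its 50-base stretches with other transcripts, Serpina3g, Serpina3c and Serpina3f among them. Reads from those stretches may have been split between the copies. Normalized counts were 28140 and 19645 in WT against 4108 and 899 in the KO-labelled libraries. The groups did not overlap, and its lowest WT value was 4.78 times its highest value labelled KO. The log2 fold change was −3.61 ± 0.74 (SE; limma, adjusted p = 0.182), the smallest fitted value of the 8. DESeq2 gave −3.25 with an adjusted p of 5.11e-04, and over all alternatives the adjusted p ranged from 5.11e-04 to 0.967. Here KO replicate 1 was the higher library, by 4.57-fold, the reverse of Lcn2 and Saa3. Leaving out a library gave log2 fold changes of −4.71 to −2.52.

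Cp and Steap4 both handle metal. Cp encodes ceruloplasmin, the copper protein that oxidises ferrous iron so that it can leave the cell. Its gene spans chr3:19957054-20009145 on the plus strand, has 16 annotated transcripts with up to 20 exons, and overlaps Hps3 on the opposite strand. Where counting took no account of strand, reads in that overlap cannot be told apart, and 0.618% of the 50-base stretches of Cp were shared with another transcript. Normalized counts were 108480 and 57043 in WT against 2946 and 5964 in the KO-labelled libraries. The groups stood 9.56-fold apart at their nearest values, and the KO-labelled libraries differed by 2.02-fold, the closest pair among the 8 genes. The log2 fold change was −4.23 ± 0.52 (SE; limma, adjusted p = 0.102), the lowest adjusted p of the 6 genes with a test. DESeq2 gave −4.22 with an adjusted p of 1.74e-10, and over all alternatives the adjusted p ranged from 1.74e-10 to 0.967. With a library left out the log2 fold change was −4.74 to −3.72.

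Steap4 reduces iron and copper at the membrane and is known to be induced by inflammatory cytokines. The gene lies at chr5:7960457-7982213 on the plus strand and has 1 annotated transcript of 5 exons. Normalized counts were 36181 and 64234 in WT against 49.2 and 226 in the KO-labelled libraries. Its groups lay furthest apart of the 8, with 160-fold between the lowest WT value and the highest value labelled KO. Described without a test, the WT mean was 365 times the mean of the KO-labelled libraries and the log2 fold change was −8.82 ± 0.76 (SE), with −9.91 to −7.73 when a library was left out.

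Hp and Lrg1 were barely detected outside WT and low within it. Hp encodes haptoglobin, which binds free haemoglobin, and lies at chr8:109575128-109579172 on the minus strand. It had 116 and 43 reads in WT against 3 and 0 in the KO-labelled libraries, so the summed ratio was 1.87% (exact 95% interval 0.381 to 5.56%, counting error only). Lrg1 encodes a secreted leucine-rich glycoprotein that modifies TGF-beta signalling in vessels, and lies at chr17:56119678-56122001 on the minus strand. It had 55 and 26 reads in WT against 2 and 0 in the KO-labelled libraries, a summed ratio of 2.45% (0.291 to 9.13%). Both KO-labelled libraries were at or under 3 reads for both genes. The fitted log2 fold changes were −5.12 ± 1.04 for Hp and −4.44 ± 0.94 for Lrg1 (SE; limma, adjusted p = 0.182 and 0.193) and depend on the value added before the log. With a library left out they ranged from −6.15 to −4.08 for Hp and from −5.27 to −3.62 for Lrg1. In DESeq2 the adjusted p was 5.00e-04 for Hp and 0.00919 for Lrg1, and across the alternatives both reached 0.967.

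**Figure D2:**
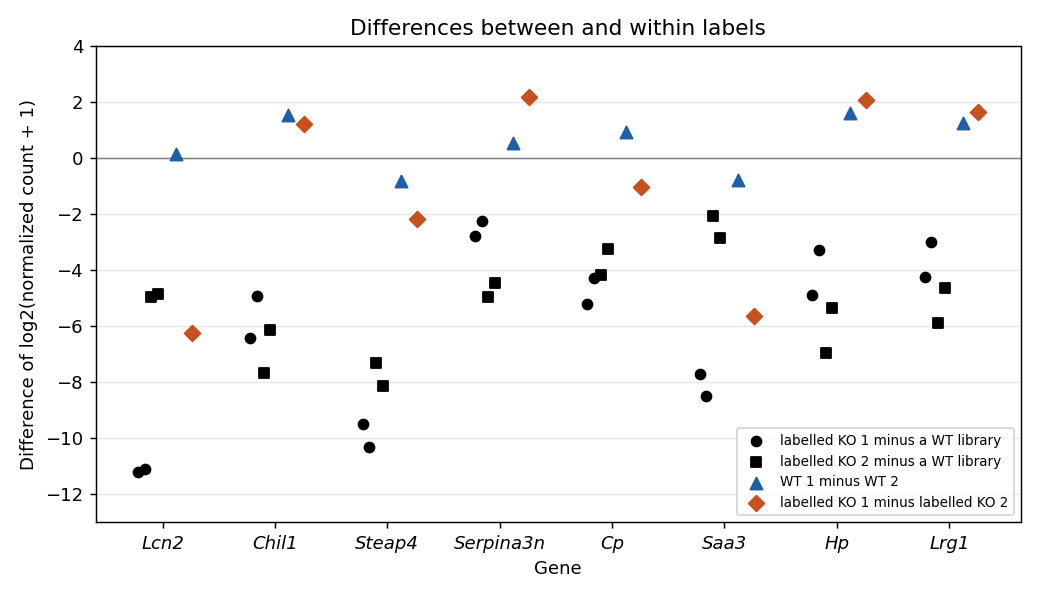
Differences of log2(normalized count + 1) for each of the 8 genes, with black points for the 4 pairs of a KO-labelled library minus a WT library, triangles for WT replicate 1 minus WT replicate 2 and diamonds for KO replicate 1 minus KO replicate 2. All pair values lie below 0, and the pairs of Lcn2 span −11.22 to −4.84 while those of Cp span −5.20 to −3.26.

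Per length, the order in WT was Lcn2 (3397 and 2975 FPKM), Chil1 (2549 and 850), Steap4 (573 and 976), Serpina3n (682 and 456), Cp (567 and 286), Saa3 (8.25 and 13.6), Hp (3.85 and 1.18) and Lrg1 (2.08 and 0.814). The ranges over the WT libraries did not overlap between Lcn2 and Chil1, between Cp and Saa3 or between Saa3 and Hp. The ranges of the remaining neighbours overlapped, although Serpina3n was above Cp and Hp above Lrg1 within each WT library. The 5 abundant genes and the 3 scarce ones were thus set apart by a gap from 286 to 13.6 FPKM. The order was different in the KO-labelled libraries. In KO replicate 1 Serpina3n led at 89.8 FPKM, followed by Chil1 at 26.5, Cp at 13.9, Lcn2 at 1.27 and Steap4 at 0.704. In KO replicate 2 Lcn2 led at 107 FPKM, followed by Cp at 30.9, Serpina3n at 21.6, Chil1 at 12.4 and Steap4 at 3.55.

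Of the 6 genes with more than 3 reads in a KO-labelled library, Chil1 and Serpina3n were higher in KO replicate 1, and Lcn2, Saa3, Steap4 and Cp in KO replicate 2. Hp (3 and 0 reads) and Lrg1 (2 and 0 reads) were too low to give a direction. On the log2 scale the difference, KO replicate 1 minus KO replicate 2, ran from −6.24 for Lcn2 and −5.62 for Saa3 to 1.23 for Chil1 and 2.19 for Serpina3n. Within WT no gene of the 8 differed by more than 1.62. Of the 34 inducers, receptors, partners and transcription factors with a mean of at least 50 normalized counts, 20 were lower and 14 higher in KO replicate 1, from −4.44 for the cytokine Lif to 2.05 for Slc22a17. These are differences between single libraries, so there is no replicate check, and nothing is tested.

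**Figure D3:**
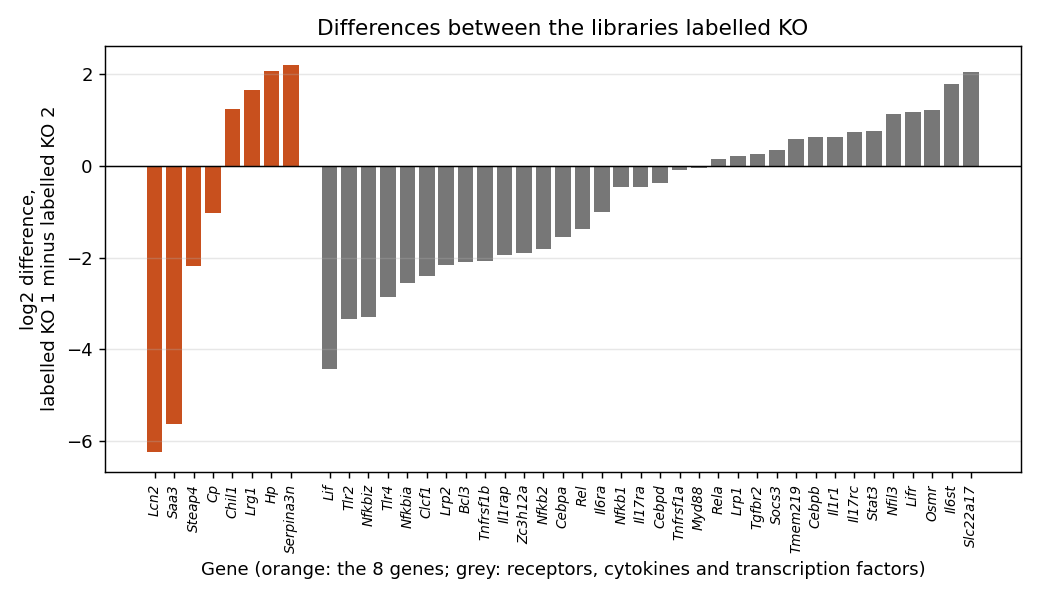
Bars give the log2 difference, KO replicate 1 minus KO replicate 2, for the 8 genes (orange) and for receptors, cytokines and transcription factors of the response (grey). Among the 8 genes Lcn2 (−6.24) and Saa3 (−5.62) lie lowest and Serpina3n (2.19) highest, and the bars of Hp and Lrg1 rest on 3 reads or fewer.

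The genes nearest to each of the 8 were sought over the 4 libraries, as the distance between centred log2 profiles. A smaller distance is more alike, and 4 points leave little to tell profiles apart. The profiles were not scaled, so the distance depends on the size of the fall as well as on shape. For Hp and Lrg1, with 3 reads or fewer in each KO-labelled library, it also depends on the value added before the log. Cp lay nearest to Oasl1 (0.19) and Trim30a (0.22), and Lrg1 to AC161607.1 (0.11) and Ifit3 (0.37). Serpina3n was closest to Dpyd (0.27) and H2-T23 (0.28), and Hp to Ifit3b (0.47). Saa3 lay 0.77 from Casp4, Chil1 1.02 from Acss3, Lcn2 1.45 from Marco and Steap4 1.72 from C3. Among the 8 themselves Hp and Lrg1 were closest (0.78), Lcn2 and Saa3 were 2.86 apart and Lcn2 and Serpina3n were farthest (7.43).

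The other genes of the response were taken from lists chosen with these data known, and limma called 0 genes of them after adjustment. DESeq2 called lower 3 of the other acute-phase genes, 2 of the inducers and receptors, 3 of the transcription factors, 1 each of the partners and relatives, 2 of the metal genes, 2 pan-reactive genes, 8 of the neurotoxic list and 2 of the repair list, and called higher 1 gene of the last, beside 4.62% lower and 1.64% higher over all genes it tested. Lower and higher without overlap below are to be read beside 25.4% and 22.5% of all tested genes. The list of other acute-phase genes had 14 tested, of which 8 were lower without overlap and 0 higher, with a median log2 fold change of −1.93. C3, the central complement component, was at 484840 and 436852 normalized counts in WT against 1783 and 4265 in the KO-labelled libraries. Its log2 fold change was −7.38 ± 0.51 (SE; limma, adjusted p = 0.0777). Other genes shared that lowest adjusted p, Xist, Psmb8 and Gbp2 among them. Serping1, the inhibitor of C1, was at 4606 and 7700 against 839 and 82.9, a log2 fold change of −4.49 (limma, adjusted p = 0.218). Itih3, of the family that stabilises hyaluronan, had −2.40 (limma, adjusted p = 0.337). A2m, a broad protease trap, was at 17457 and 16556 normalized counts in WT and at 22779 and 2401 in the KO-labelled libraries, so its groups overlapped.

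Of the 20 tested inducing cytokines and their receptors, 12 were lower without overlap and 1 was higher (25.4% and 22.5% over all genes), with a median log2 fold change of −0.99. The receptors Tnfrsf1b, Il6ra and Osmr had log2 fold changes of −3.65, −2.03 and −1.51, with adjusted p of 0.179, 0.218 and 0.284 in limma. The shared receptor chain Il6st had −1.03 and the main tumour necrosis factor receptor Tnfrsf1a −0.35. The cytokine Clcf1 overlapped, at 1057 and 1153 normalized counts against 1008 and 5302. Among the 14 transcription factors and their regulators, 11 were lower without overlap and 0 higher, with a median of −1.06. Bcl3, an NF-kB cofactor, was at 595 and 364 against 6.42 and 30.6 normalized counts (log2 fold change −4.93; limma, adjusted p = 0.147). Cebpd and Cebpb, the C/EBP factors of the acute phase, had −1.92 and −2.19 (limma, adjusted p = 0.139 and 0.148), and their groups did not overlap. Stat3 itself had −0.65 and Nfkbia −1.85.

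**Figure D4:**
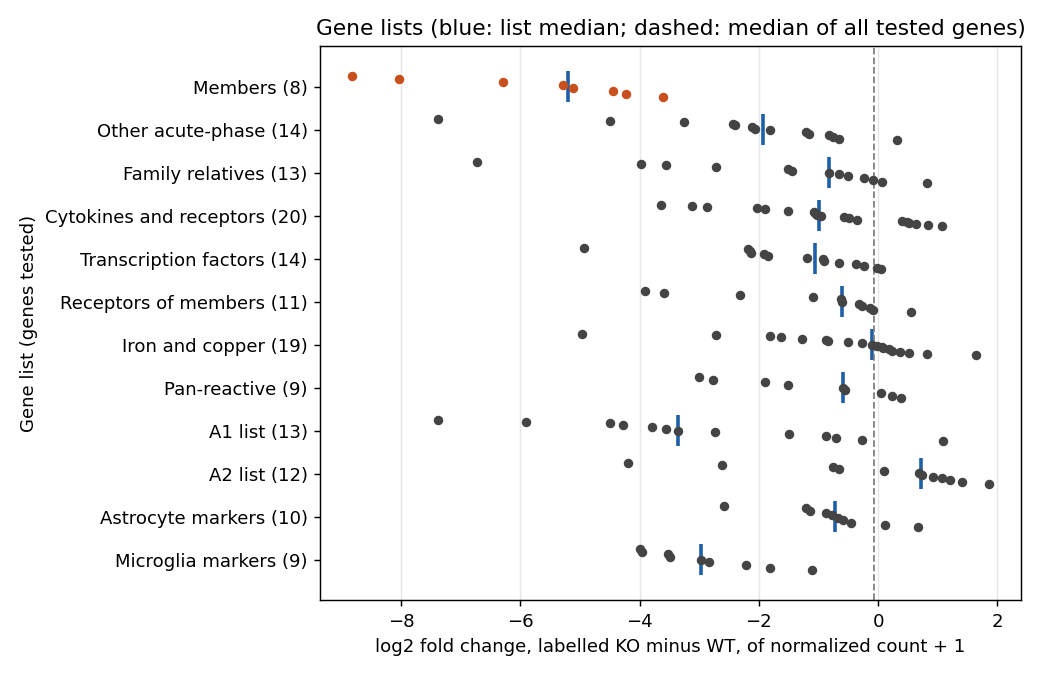
Log2 fold change, KO-labelled libraries minus WT, of each tested gene in the 8 genes and in each list (points), with the median of the list in blue and the median of all tested genes (−0.07) as a dashed line. The 8 genes have a median of −5.20 and the list described for neurotoxic astrocytes one of −3.35.

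Receptors and partners of the 8 products were 11 tested genes, with 4 lower without overlap and 0 higher (25.4% and 22.5% over all genes) and a median of −0.60. Slc22a17, a receptor for lipocalin 2, was at 4853 and 3946 normalized counts against 4177 and 1011, so the groups overlapped. Lrp1, an endocytic receptor for protease complexes, had −0.60, and Tlr2, a receptor that serum amyloid A can engage, had −3.59 (limma, adjusted p = 0.275). The list of family relatives had 13 tested genes, of which 6 were lower without overlap and 0 higher (against the same 25.4% and 22.5%), with a median of −0.82. Serpina3i, a neighbour of Serpina3n, was at 132 and 237 normalized counts in WT and at 0 and 1.80 in the KO-labelled libraries, and it too lies among near copies. Steap3 was at 911 and 1308 against 428 and 64.0, while Steap2 overlapped at 807 and 647 against 444 and 1288. Ptgds, a lipocalin that makes a prostaglandin, had a log2 fold change of −1.45.

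Of 19 iron and copper genes tested, 6 were lower without overlap, 3 were higher and 10 overlapped, near the shares over all genes (25.4% lower, 22.5% higher), with a median of −0.10. The ferritin heavy chain Fth1 was at 100810 and 120139 normalized counts in WT and at 39390 and 32096 in the KO-labelled libraries (log2 fold change −1.63 ± 0.39, SE; limma, adjusted p = 0.218). The light chain Ftl1 overlapped at 7181 and 10097 against 6429 and 12657. Tfrc, the transferrin receptor, was higher at 554 and 3582 against 436 and 467 (1.64; limma, adjusted p = 0.467).

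Reactive astrocyte lists, as used here without the 8 genes, differed from each other. The pan-reactive list was used without the 8 genes described here, several of which are known markers of reactivity. Its counts and median cover only the genes left in it and are not those of reactivity markers as a whole. Of these 9 pan-reactive genes 4 were lower without overlap and 0 higher, beside 25.4% and 22.5% over all genes. Their median was −0.58 in limma but 0.16 in edgeR and 0.20 in DESeq2. Gfap, the intermediate filament used to mark astrocytes, was at 58004 and 67297 normalized counts in WT and at 174853 and 9945 in the KO-labelled libraries, and its log2 fold change was −0.58 in limma but 0.56 in DESeq2. S1pr3, a lipid receptor, had −1.90 (limma, adjusted p = 0.217), and Vim overlapped. Of the 13 genes of the list described for neurotoxic astrocytes 9 were lower and 0 higher by the same measure, with a median of −3.35, C3 and Serping1 being on it too. Iigp1, an interferon-induced GTPase, had −5.90 (limma, adjusted p = 0.0924), and H2-D1, a class I antigen-presenting molecule, −2.73 (adjusted p = 0.137 in limma). Of the 12 genes of the list described for injury repair 3 were lower and 4 higher without overlap, with a median of 0.71 that became −0.20 without KO replicate 2. Tgm1 and Cd14 had −4.19 and −2.62, whereas Sphk1, S100a10 and Tm4sf1 had 1.86, 1.20 and 0.92.

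Markers of other cell types differed between the libraries as well. Of 9 microglial markers 8 were lower without overlap (25.4% over all genes), with a median log2 fold change of −2.96. Their summed level was 11.7 and 25.5 FPKM in WT against 1.98 and 4.99 in the KO-labelled libraries. P2ry12 alone of these 9 was at 0 in KO replicate 1, but it reached only 6.40 normalized counts in WT. Csf1r, Cd68 and Cx3cr1 were lower than in WT but still at 35.3, 27.8 and 23.5 normalized counts in KO replicate 1. Lcn2, Saa3, Hp and Lrg1 are also made by neutrophils or other myeloid cells. Of 10 neutrophil markers 5 were listed and 3 tested, with a summed level of 0.478 and 2.89 FPKM in WT against 0 and 0.236 in the KO-labelled libraries. S100a8, Csf3r and Camp were all at 0 in KO replicate 1, but at only 2.13, 5.33 and 2.13 normalized counts in WT replicate 1. Astrocyte markers summed to 1901 and 1773 FPKM in WT and to 3028 and 477 in the KO-labelled libraries, but Gfap carried much of this. Without Gfap the sums were 1213 and 1008 FPKM in WT and 1157 and 360 in the KO-labelled libraries. Of the 10 astrocyte markers 5 were lower without overlap (Slc1a2, Sox9, Slc1a3, Aqp4 and Aldh1l1), 1 was higher (Gja1) and 4 overlapped. All 8 markers of cycling cells were higher without overlap (22.5% over all genes), with sums of 2.34 and 12.2 FPKM in WT against 32.6 and 57.8 in the KO-labelled libraries. For fibroblasts the sums were 6.09 and 13.1 FPKM in WT, and those of the KO-labelled libraries lay between these values. Sums for the remaining lists, WT first, were 19.7 and 20.4 FPKM against 18.8 and 9.52 for endothelium, and 132 and 198 against 141 and 49.1 for choroid plexus and ependyma. They were 152 and 225 against 370 and 230 for oligodendrocytes, and 13.0 and 8.15 against 11.1 and 17.4 for neurons. The part of these differences in the values of the 8 genes was not tested.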

How the data were processed

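RNA-seq was analysed from 4 primary astrocyte libraries, 2 WT and 2 labelled KO, grouped by the genotype in the sample labels. The authors aligned the reads to the mouse genome, mm10 in the submitters' processing notes, and the aligner and counting program are not given in the sources used here. For each gene and library the authors deposited a signal, which is a read count divided by a size factor (0.934 to 1.11). All values were whole multiples of 1 read within a tolerance of 0.02, so whole reads were recovered. The 3 columns of the authors' own comparison and 2 columns of genotype means were not used.

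Log2(normalized count + 1) of 22094 genes (mean of 1 or more) was tested with limma 3.58.1 (lmFit, eBayes with trend, Benjamini-Hochberg) in R 4.3.3, without a block. The recovered reads were tested with edgeR 4.0.16 and DESeq2 1.42.0 as alternatives. The planned design had assumed FPKM, and the normalized counts took its place. FPKM was computed from the recovered reads, gene lengths and total reads on genes. Fold changes on the log2(value + 1) scale understate those of low genes, and intervals cover counting error only. The other alternatives were a pseudocount of 0.1, a mean minimum of 5, no filter, equal library sums, quantile normalization, eBayes without trend, a replicate block and leaving out each library. The steps were tested on simulated data.

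The 8 genes and all gene lists were chosen with earlier results of these data known. Besides the 8, the rule named up to 3 genes of each list with the highest FPKM, up to 3 with the largest change, and the nearest profiles. Saa1, Saa2, Psmb8, Gbp2, P2ry12, Gja1, Aldh1l1 and the genes compared between the KO-labelled libraries were named after their values were seen. Positions were those of the deposited table and the same in GENCODE M21 for the 8 genes. One planned microglial marker is not reported here.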

Additional observations from a re-analysis of the deposited data

How the results depend on the processing

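All 6 genes with a test were lower in the KO-labelled libraries under every alternative run. limma called 0 genes after adjustment in each limma setting and edgeR called 0, while DESeq2 called 1088 (803 lower, 285 higher) and gave log2 fold changes of −5.89 for Lcn2, −3.25 for Serpina3n, −5.74 for Hp, −4.22 for Cp and −5.35 for Lrg1, all past the threshold. The cause was not tested. At an unadjusted p under 0.05 limma had 2028 genes lower and 1004 higher, which quantile normalization turned to 1490 and 1417 (48.7% higher against 33.1%) as the median of all genes moved from −0.07 to 0.08. Leaving out 1 library gave 1029 to 4925 such genes, with 2 of the 6 among them without WT replicate 1 and 3 without WT replicate 2. The median of the 8 genes ran from −6.30 (pseudocount 0.1) to −4.81 (quantile normalization). The pan-reactive median, taken without the 8 genes, turned from −0.58 to 0.16 in edgeR and 0.20 in DESeq2. The fibroblast marker median turned from −1.21 to 0.13 at a mean minimum of 5, where fewer genes were tested.

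With a replicate block, limma called 0 genes after adjustment and 2583 at an unadjusted p under 0.05 (1821 lower, 762 higher), and the log2 fold change of Lcn2 was still −8.03. Same-numbered libraries did not deviate together (correlation −0.08), so the numbers were not taken as a pairing.

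Low counts limited Hp and Lrg1, with 3 reads or fewer in each KO-labelled library. For Saa3 this held only in KO replicate 1, with 1 read against 112 in KO replicate 2.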
